A study of Mus musculus with 9 samples.

Results

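The expressed Zfp genes described here are 155 protein-coding genes of the mouse whose symbol is Zfp followed by a number alone. They were selected on their read counts: a gene entered if its mean over all 9 libraries was at least 200 reads. Zfp36, which encodes an RNA-binding protein of another kind, was left out. The tables held 326 such Zfp genes among 23944 genes, and 171 of them lay under the minimum. Just inside it were Zfp74, Zfp653 and Zfp942 with means of 200, 201.7 and 206.1 reads, and just outside were Zfp867, Zfp770 and Zfp87 with 194.7, 194.3 and 194.2. The members' means ran from 200 to 5423.7 reads, with a median of 529.0.

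Most of these genes encode proteins with C2H2 zinc fingers, small loops in which a pair of cysteines and a pair of histidines hold a zinc ion and neighbouring side chains read DNA or RNA. Many proteins of this family also carry a KRAB box near the amino terminus, which recruits the co-repressor Trim28 and, with it, histone methylation by Setdb1 and heterochromatin proteins, above all at transposons and imprinted loci. Other Zfp symbols belong to unrelated proteins that share only a finger, among them ribosome-associated factors, ubiquitin ligases and subunits of chromatin complexes.

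RNA came from whole left lungs of wild-type adult mice in 3 groups of 3 libraries. Naive lungs were from C57BL/6 mice. Cold-ischemia grafts were C57BL/6 lungs stored for 24 h at 0 °C and then perfused for 2 h in a Balb/C recipient. Shock grafts had the same storage and reperfusion, but the donor had first spent 4 h in hypovolemic shock at a mean arterial pressure of 15 ± 5 mmHg and 20 h in recovery. Both graft groups thus share transplantation into another strain, and blood cells of the Balb/C host can be in the tissue. The labels of the naive libraries also point to records of another series, so a batch and the difference between naive lungs and grafts cannot be told apart. The deposited tables and the sample titles disagree on 2 graft libraries: cold-ischemia replicate 2 stands among the shock grafts in the tables, and shock replicate 3 among the cold-ischemia grafts. The titles were followed here, and the comparison of all 6 grafts with the naive lungs takes every graft whichever label is right. Nothing in the labels ties a library to a particular animal, and the p-values therefore reflect the spread among these libraries alone.

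Libraries held 18913487 to 34986276 counts. Markers of alveolar type 2 cells and of the lung were abundant in all 9 libraries, at a summed 17522 to 24577 and 21444 to 39308 CPM (counts scaled to library size, with TMM factors). All 9 neutrophil markers rose in grafts, from a summed 51.0 to 81.6 CPM in naive lungs to 1034 to 2998 CPM. The B cell sum was lower in grafts (29.8 to 47.3 CPM against 72.4 to 95.2, with 5 of 6 genes called lower), and so was the mesothelium sum (4.17 to 56.4 CPM against 192 to 257, 5 of 5 called lower). Monocyte markers summed to 72.6 to 105 CPM in naive lungs and 85.6 to 182 CPM in grafts, T cell markers to 32.4 to 37.2 and 35.4 to 61.8 CPM, alveolar macrophage markers to 802 to 1069 and 772 to 1539 CPM, and endothelial markers to 3689 to 3994 and 2390 to 3921 CPM. The part of these shifts in the results on Zfp genes was not tested. In whole tissue, fewer cells of a type and less RNA per cell cannot be told apart.

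The finger is the element that gives the set its name, so one is shown for each of 4 members with large changes, as the coding sequence from GENCODE M21 transcripts in mm10 coordinates. Capitals mark the codons of the zinc-binding cysteines and histidines, which are separated in each by the 12 residues that hold the DNA-reading helix.
Zfp46, chr4:136290304-136290381, plus strand: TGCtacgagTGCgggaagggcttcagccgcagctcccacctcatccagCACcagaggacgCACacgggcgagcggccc
Zfp948, chr17:21587193-21587270, plus strand: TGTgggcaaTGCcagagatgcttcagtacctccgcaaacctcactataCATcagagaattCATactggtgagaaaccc
Zfp52, chr17:21560453-21560530, plus strand: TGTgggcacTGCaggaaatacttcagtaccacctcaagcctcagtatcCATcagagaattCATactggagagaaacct
Zfp60, chr7:27748431-27748508, plus strand: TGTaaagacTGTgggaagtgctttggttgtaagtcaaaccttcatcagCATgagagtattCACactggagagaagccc
Each line is 78 bases and codes for 26 residues. Across the set, the finger pattern matched a median of 9 times per protein and at most 36 times. It matched 0 times in 5 members: Zfp185, Zfp330, Zfp365, Zfp503 and Zfp703. A KRAB box was matched in 58 members.

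More of these Zfp genes were called lower than higher in grafts, and the largest change was a rise. Of the 155 members, 55 were lower and 30 higher in the 6 grafts than in the 3 naive lungs, and 70 passed in neither direction (edgeR's quasi-likelihood test, Benjamini-Hochberg adjusted p under 0.05 over the 15834 genes tested). Over all genes tested, 19.7% were lower and 22.1% higher, against 35.5% and 19.4% of the members. Among the 10187 protein-coding genes with the same read minimum, 18.9% were lower and 27.6% higher. The members' median log2 fold change was -0.21, that of all genes tested -0.05 and that of the protein-coding genes 0.02. All 6 grafts lay below all 3 naive libraries for 53 members and above them for 30, where 20% and 20.9% of all genes did so.

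**Figure D1:**
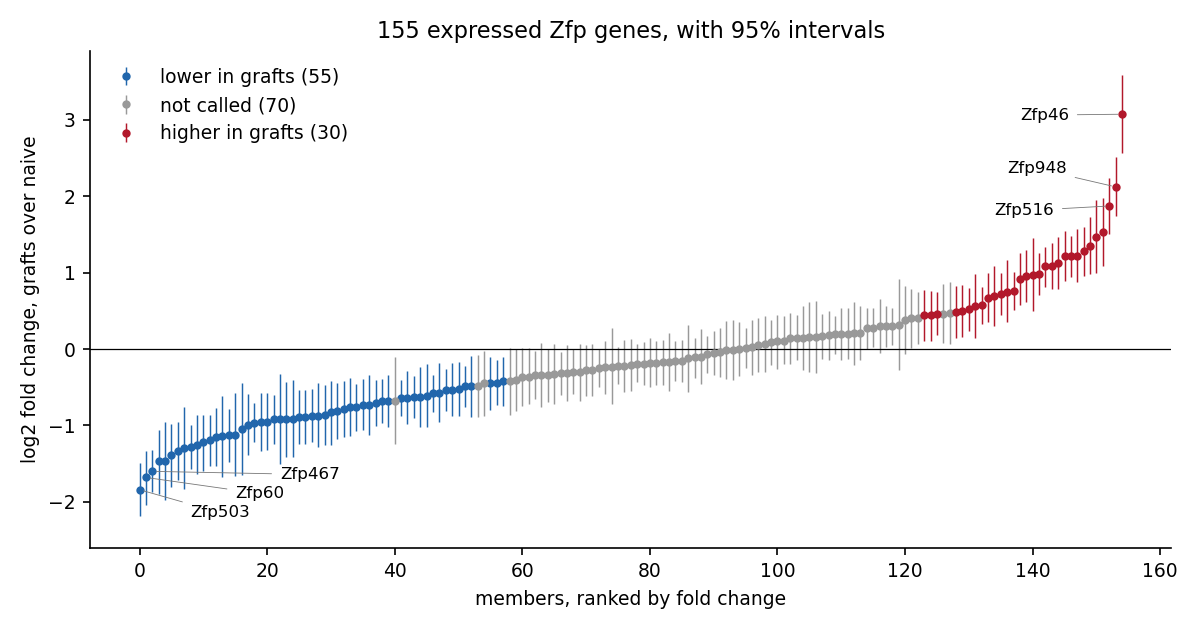
Log2 fold change of grafts over naive lungs for each of the 155 members, ranked, with 95% intervals from the fit; blue, grey and red mark genes called lower, not called and called higher. The lower tail is long and even down to -1.84, whereas the upper tail ends in a steep step to 3.07 for Zfp46.

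The share of members that fell was highest among those with few reads, where it was also highest among other coding genes. Of the 58 members with 200 to 400 mean reads, 30 were lower and 6 higher, with a median of -0.55. In the same range of reads, 30.2% of 1985 protein-coding genes were lower, against 51.7% of the members. Between 400 and 800 reads, 13 of 49 members were lower and 10 higher, close to the shares of other coding genes (26.5% lower against 24.8%). At 800 reads and more, 12 of 48 were lower and 14 higher, and 25% of the members were lower against 12.7% of coding genes. Because the minimum was set on the mean of both kinds of lung, 28 members passed it through the naive lungs alone and 2 through the grafts alone. All 28 lay in the lowest range of reads, and 21 of them were lower. Being over the minimum in naive lungs and under it in grafts, these members had fewer reads in grafts by the choice itself. Their count is therefore a description only. The minimum is on reads not scaled to depth, and Zfp511, among the 28, had means of 8.09 CPM in naive lungs and 8.12 CPM in grafts. Of the 125 members with at least 200 mean reads in both, 34 were lower and 28 higher, with a median of -0.07. These are 27.2% and 22.4%, where 16.7% and 27.6% of the 9292 protein-coding genes that pass in both were lower and higher. With a minimum of 500 reads, 19 members were lower and 24 higher and the median turned to 0.07. The values of protein-coding genes also shifted upward with reads. Their median was -0.25 at 200 to 400 reads and 0.16 at 800 and more, where 35.6% of them were higher. Their shares at a minimum of 500 are not given here.

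**Figure D2:**
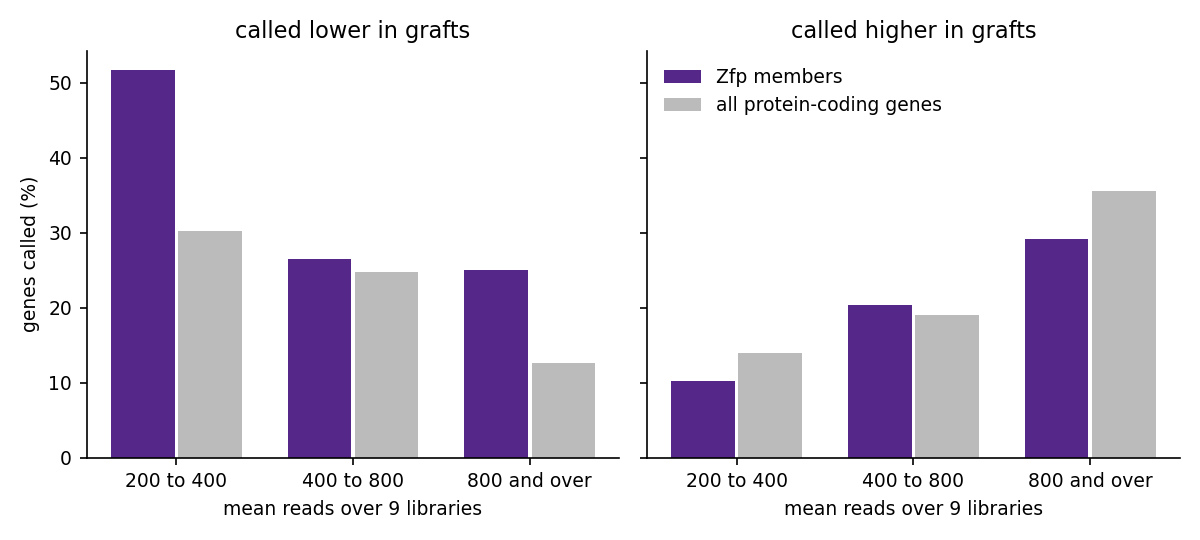
Percent of genes called lower (left) and higher (right) in grafts, for Zfp members (purple) and all protein-coding genes (grey) in 3 ranges of mean reads over the 9 libraries. The widest gap in percentage points is in the lowest range, where 51.7% of members and 30.2% of coding genes were lower. Of the 58 members in that range, 28 passed the minimum through the naive lungs alone, and 21 of these 28 were lower. Fewer reads in grafts came with that choice.

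The scaling of the libraries also moves these counts. Members took 0.552% to 0.554% of all counts in naive lungs and 0.439% to 0.508% in grafts. Their summed CPM after TMM scaling was 4690 to 4903 in naive lungs and 4833 to 5419 in grafts. The direction of the sum thus turns with the scaling, and the CPM ranges overlap. Within the CPM sum, Zfp46 alone had means of 34.0 CPM in naive lungs and 294 CPM in grafts. With library totals alone, 90 members were lower and 19 higher, and the median of all genes tested moved from -0.05 to -0.37. Over all genes, 39.6% were lower and 14.6% higher with library totals. Under all 4 scalings tried, 53 members were called lower and 19 higher. The share of all genes called under all 4 is not given here.

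Zfp46, a gene with 12 finger matches on chromosome 4, had the largest rise. Its level was 33.0, 34.1 and 34.8 CPM in the naive lungs. The cold-ischemia grafts had 278, 349 and 465 CPM, and the shock grafts 269, 155 and 246 CPM. The lowest graft thus stood far above the highest naive lung, and the grafts differed more among themselves than the naive lungs did. The log2 fold change was 3.07 ± 0.23 (SE; adjusted p = 5.27e-06, edgeR), with means of 34.0 ± 0.885 (SD, n = 3) and 294 ± 105 CPM (SD, n = 6).

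Zfp948 and Zfp52 are KRAB zinc-finger genes whose starts are 12000 bases apart on chromosome 17, at chr17:21567046-21588697 and chr17:21555046-21562066 of mm10, and both rose. Zfp948 was at 7.95, 7.69 and 7.94 CPM in naive lungs, at 32.8, 31.2 and 22.9 CPM in cold-ischemia grafts and at 48.4, 39.7 and 33.7 CPM in shock grafts, a log2 fold change of 2.12 ± 0.17 (adjusted p = 8.44e-06, edgeR). Zfp52 was at 5.47, 5.84 and 6.70 CPM, then at 16.0, 16.1 and 8.59 CPM, and at 21.8, 19.5 and 20.2 CPM in the same order of groups. Its log2 fold change was 1.47 ± 0.21 (adjusted p = 0.000352, edgeR). No graft overlapped the naive lungs for either gene. Zfp52 had 191, 129 and 265 reads in naive libraries and passed the minimum through the grafts alone. More reads in grafts thus came with the choice for Zfp52. The other 5 members between the starts of Zfp160 and Zfp945 (chr17:21008941-22867134), all with a KRAB box, did not rise: Zfp160 fell by 0.68 ± 0.15 and Zfp945 fell by 0.78 ± 0.16 on the log2 scale (adjusted p = 0.00474 and 0.00316, edgeR). Zfp942, Zfp943 and Zfp758 were not called, at -0.48, -0.27 and 0.19. These neighbours were chosen for their place after their values were seen. Zfp160, with 105 to 190 reads in the grafts, passed the minimum through the naive lungs alone. Of the 50-base words of Zfp52 0.87%, and of those of Zfp948 0.12%, occur in transcripts of other genes.

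The other large rises were of genes with varied roles. Zfp516, a transcription factor known from the activation of brown fat genes, went from 43.1, 41.9 and 45.7 CPM in naive lungs to a lowest, median and highest graft of 127, 161 and 204 CPM (log2 fold change 1.87 ± 0.17, adjusted p = 1.54e-05, edgeR). Zfp697 rose from 17.7 ± 1.22 CPM (n = 3) to 51.7 ± 14.2 CPM (n = 6), though 10.5% of its 50-base words occur in other genes. Zfp57, the KRAB protein that keeps DNA methylation at imprinted loci, stood at 8.47, 6.42 and 7.31 CPM in naive lungs and at 15.6 to 24.0 CPM in grafts, a log2 fold change of 1.35 ± 0.17 (adjusted p = 0.000129, edgeR). The remaining 4 of the 10 largest rises were Zfp281, a factor of the stem cell network (1.28), Zfp703, a Groucho-binding co-repressor (1.22), Zfp800 (1.21) and Zfp131 (1.21). For all 10, every graft exceeded every naive lung, which the choice of these genes required.

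Zfp503, a co-repressor of the same small family as Zfp703, fell furthest. It had 77.7, 111 and 95.1 CPM in the naive lungs and between 22.3 and 31.7 CPM in the grafts, with a graft median of 25.5 CPM. The log2 fold change was -1.84 ± 0.16 (adjusted p = 1.11e-05, edgeR). The pair of relatives thus moved in opposite directions, each in both graft groups: Zfp503 by -1.84 and -1.83, and Zfp703 by 1.30 and 1.14, in cold-ischemia and shock grafts. For Zfp703, 13.5% of the exonic bases lie opposite another gene, and the labels do not say whether counts kept the strand.

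Zfp60, a KRAB gene with 19 finger matches, was at 15.7, 15.0 and 15.0 CPM in naive lungs and at 3.31 to 5.93 CPM in grafts (log2 fold change -1.68 ± 0.16, adjusted p = 2.22e-05, edgeR). With 332 to 594 reads in naive libraries and 73 to 122 in grafts, Zfp60 passed the minimum of 200 through the naive lungs alone. Zfp467, which favours fat over bone formation in precursor cells, was at 26.0, 29.2 and 26.7 CPM and then at 8.09 to 10.5 CPM (-1.60 ± 0.12, adjusted p = 6.16e-06, edgeR). In both genes the naive libraries lay close together and the highest graft was far below them. The other 7 of the 10 largest falls were Zfp251 (-1.47), Zfp324 (-1.47), Zfp395 (-1.39), Zfp362 (-1.34), Zfp810 (-1.30), Zfp866 (-1.28) and Zfp113 (-1.25). Of these 10, 6 carry a KRAB box, as do 58 of all 155 members. Zfp60, Zfp251, Zfp324, Zfp810 and Zfp113, all with a KRAB box, passed the minimum through the naive lungs alone. Fewer reads in grafts came with that choice, so the count of KRAB genes here is a description only.

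**Figure D3:**
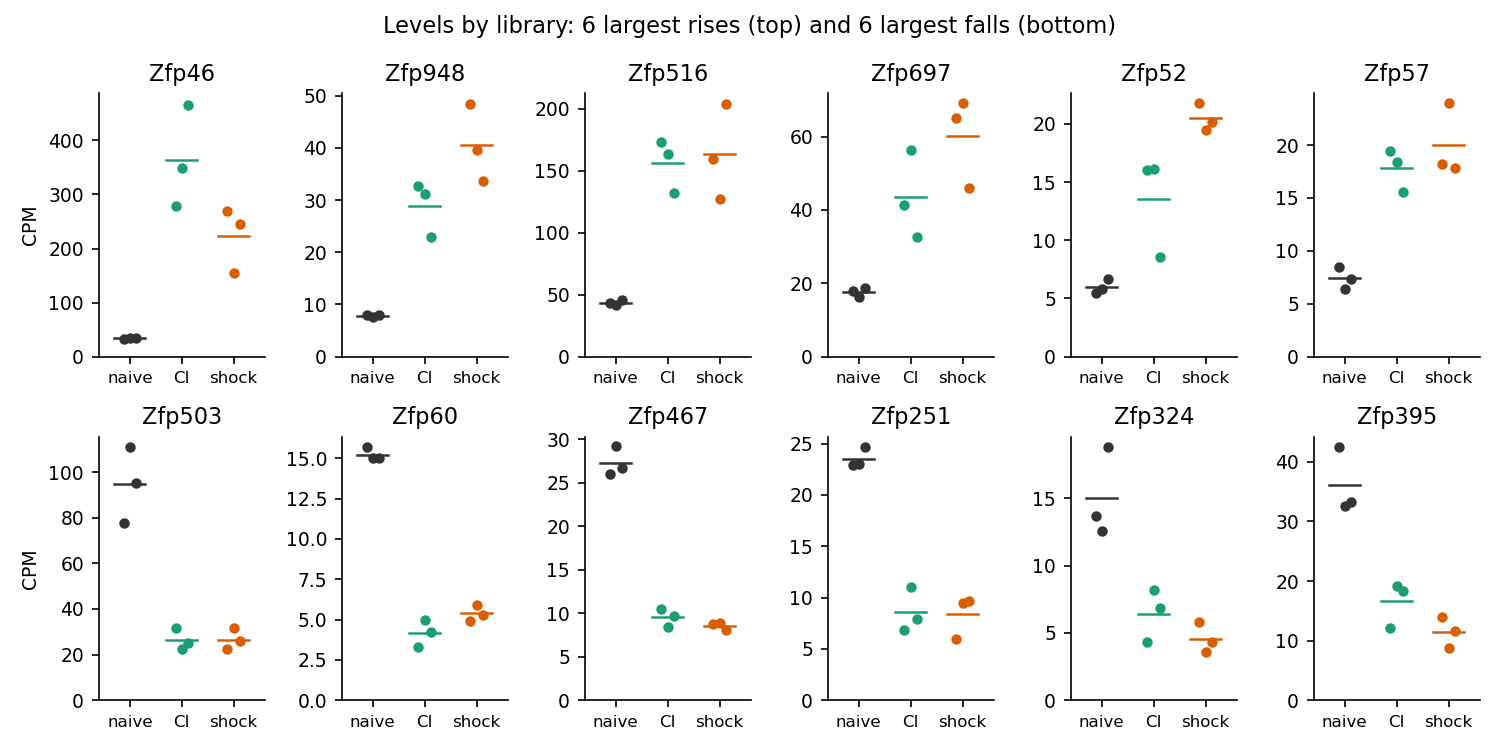
CPM of each library, on axes that start at 0, for the 6 largest rises (top) and 6 largest falls (bottom); points are libraries and bars group means of naive lungs, cold-ischemia (CI) grafts and shock grafts. No graft overlaps the naive lungs in any panel, and Zfp46 is the one with the widest spread among grafts, from 155 to 465 CPM. Zfp52 passed the read minimum through the grafts alone, and Zfp60, Zfp251 and Zfp324 through the naive lungs alone.

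A larger share of KRAB members than of the others was lower in grafts. Among the members that reached the minimum in both kinds of lung the shares were close. That choice itself removes mainly members with fewer reads in grafts, so it cannot decide whether the kinds differ. Of the 58 with a KRAB box, 28 were lower and 10 higher, with a median log2 fold change of -0.47. Of the 97 without a match to the KRAB pattern, 27 were lower and 20 higher, with a median of -0.11. A box that departs further from the pattern would be counted among these 97. Of the 28 members that passed the minimum through the naive lungs alone, 21 carry a KRAB box, and 18 of these were lower. Of the members with at least 200 mean reads in both kinds of lung, 10 of 36 with a KRAB box were lower and 9 higher (27.8% and 25%), and 24 of 89 others were lower and 19 higher (27% and 21.3%). Their medians were -0.12 and -0.04. Within 200 to 400 mean reads, 5 of 18 such KRAB members and 4 of 10 such others were lower, both with a median of -0.28. Of all members in that range, 23 of 40 with a KRAB box and 7 of 18 others were lower, with medians of -0.62 and -0.33. These include the members that passed through the naive lungs alone. From 400 to 800 reads, the medians were -0.05 for 11 KRAB members and 0.00 for 38 others. From 800 reads, they were 0.14 for 7 and -0.10 for 41. The difference between these kinds of member was not tested.

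**Figure D4:**
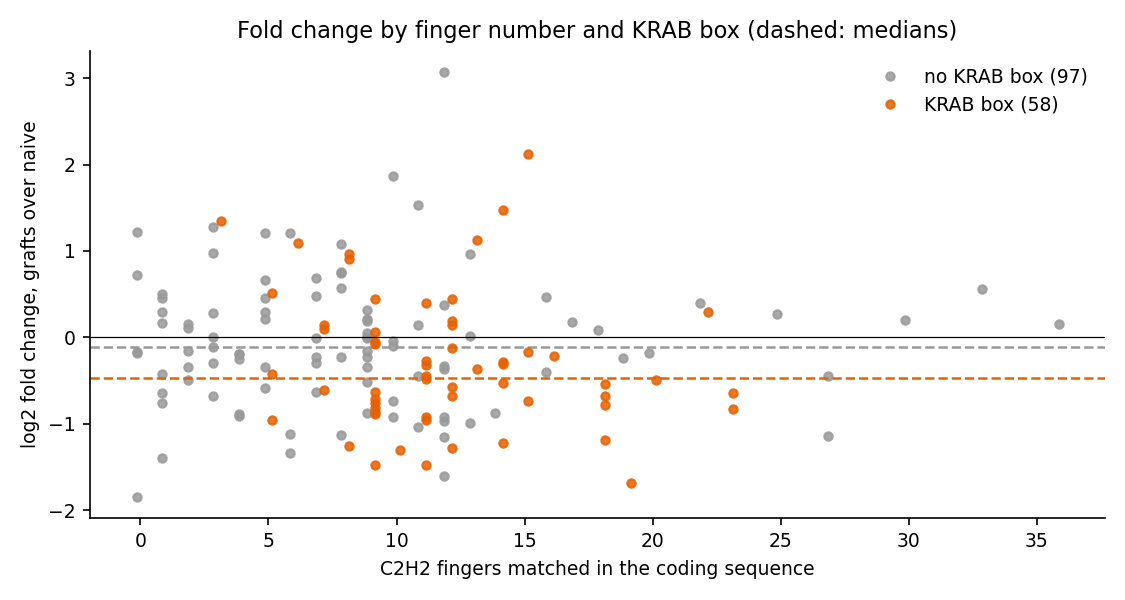
Log2 fold change of grafts over naive lungs by finger matches, for members with (orange) and without (grey) a match to the KRAB pattern. Dashed lines are the medians of the 2 kinds, -0.47 and -0.11. These include the members that passed the minimum through the naive lungs alone. Members of both kinds lie on both sides of 0. The medians of those passing in both kinds of lung are -0.12 and -0.04, a choice that removes mainly members with fewer reads in grafts.

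The partners through which KRAB proteins act gave a mixed picture. Trim28, the co-repressor that binds the box, was at 95.8 CPM in naive lungs and 96.2 CPM in grafts, with a log2 fold change of 0.00 ± 0.17. Of 24 tested genes of the list of KRAB co-repressors and heterochromatin factors, 9 were lower and 3 higher (37.5% and 12.5%, where 19.7% and 22.1% of all genes tested were). The histone methyltransferase Setdb1 fell by 0.75 and its cofactor Atf7ip by 1.02 on the log2 scale (adjusted p = 0.00251 and 0.000289, edgeR). The 3 HP1 genes Cbx1, Cbx3 and Cbx5 also fell, by 0.77, 0.75 and 0.58, and the histone methyltransferases Ehmt1 and Ehmt2 fell by 1.23 and 0.39. The deacetylase Hdac2 and the remodeller Smarcad1 were the other 2 lower genes. The remodeller Chd4, the bromodomain protein Trim24 and the methyltransferase Suv39h2 rose, by 1.11, 0.76 and 1.14. With library totals in place of TMM, 12 of the 24 were lower and 2 higher, where 39.6% and 14.6% of all genes were.

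Members known for silencing and imprinting were mostly not called. Of 4 on the list, 1, Zfp57, was called higher and 0 were called lower (25% and 0%, where 22.1% and 19.7% of all genes tested were). Zfp445, its partner at imprinted loci, was at 35.1 ± 5.29 CPM (n = 3) in naive lungs and 38.8 ± 4.24 CPM (n = 6) in grafts. Zfp809, which silences retroviral DNA, was at 16.5 ± 1.06 and 18.2 ± 3.94 CPM. Zfp568, a repressor of a placental Igf2 transcript, was at 27.6 ± 2.91 and 36.4 ± 7.05 CPM (adjusted p = 0.0909, edgeR), and was called when cold-ischemia replicate 1 was left out and under the tables' grouping (lowest adjusted p = 0.0407).

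Of the 7 members known for work on RNA and ribosomes, 2 rose and 2 fell (28.6% each, where 22.1% and 19.7% of all genes tested did). Zfp622, an assembly factor of the large ribosomal subunit, went from 33.0, 32.9 and 34.7 CPM in naive lungs to 59.6 to 85.1 CPM in grafts (log2 fold change 0.98 ± 0.12, adjusted p = 0.000144, edgeR). Zfp326, a factor that couples transcription to splicing, rose by 0.50 ± 0.15, with overlapping libraries (adjusted p = 0.0233, edgeR), and was not called when naive replicate 1 or 2 was left out, with upper-quartile scaling or with library totals (lowest log2 fold change 0.18, highest adjusted p = 0.311). Zfp706 fell from 127 ± 9.29 CPM (n = 3) to 81.3 ± 8.85 CPM (n = 6), a log2 change of -0.64 ± 0.11, and Zfp346, which binds double-stranded RNA, fell from 21.4 ± 5.98 to 11.4 ± 2.34 CPM. Zfp598, the ubiquitin ligase that senses collided ribosomes, had 44.1, 46.8 and 54.4 CPM in naive lungs, 57.1, 60.0 and 50.9 CPM in cold-ischemia grafts and 68.6, 108.4 and 62.7 CPM in shock grafts. Its log2 fold change of 0.46 ± 0.18 missed the threshold (adjusted p = 0.0548, edgeR), and it was called when any 1 shock library or both disputed libraries were left out, with RLE size factors and by DESeq2. Zfp207 and Zfp106 were not called.

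The list of 15 members known from chromatin complexes or as transcription factors had 8 higher and 2 lower (53.3% and 13.3%, where 22.1% and 19.7% of all genes tested were) and a median of 0.56. With library totals 5 were higher and 4 lower, where 14.6% and 39.6% of all genes were. Besides Zfp516 and Zfp281, Zfp217, which works with the demethylase Lsd1 and the co-repressor CtBP, rose by 1.08 ± 0.12, from 49.2, 51.5 and 49.3 CPM to between 76.9 and 124 CPM (adjusted p = 5.93e-05, edgeR). Zfp335, a subunit of a histone H3 methyltransferase complex, rose by 0.96 ± 0.15 and Zfp384 by 0.76 ± 0.11. For Zfp335, 28.3% of the exonic bases lie opposite another gene. Zfp644 and Zfp462, partners of Ehmt1 and Ehmt2, rose by 0.69 ± 0.18 and 0.56 ± 0.19, while those enzymes fell. Zfp462 was not called without any 1 naive library, without cold-ischemia replicate 2, with the replicate block, with upper-quartile scaling or with library totals, and Zfp644 not without naive replicate 2 or with library totals. The relatives Zfp592, Zfp687 and Zfp532 form one complex, but Zfp592 rose by 0.57 ± 0.11 (not called with library totals), Zfp532 fell by 0.92 ± 0.22 on the log2 scale and Zfp687 stayed at 29.3 ± 2.51 and 29.1 ± 5.43 CPM. Of the exonic bases of Zfp532, 28.7% lie opposite another gene. Zfp292 fell by 0.87 ± 0.16. Zfp410, known as an activator of Chd4, was at 18.8, 20.7 and 25.1 CPM in naive lungs and 19.6 to 32.7 CPM in grafts (not called), beside the rise of Chd4 from 251 to 542 CPM. Zfp148, Zfp143 and Zfp318 were not called, but Zfp148 and Zfp318 were called lower when cold-ischemia replicate 2 was left out, under the tables' grouping, with upper-quartile scaling and with library totals. Zfp318, which B cells use to make IgD, was at 29.6 ± 2.91 and 23.5 ± 4.71 CPM, beside the lower sum of B cell markers.

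Among the 7 members with roles in signalling and development, 4 fell and 2 rose, with 19.7% and 22.1% of all genes doing so. Besides Zfp503, Zfp467 and Zfp395, Zfp521, an antagonist of early B cell factors, fell by 1.14 ± 0.24 on the log2 scale, from 19.5 ± 2.46 CPM (n = 3) to 8.82 ± 2.43 CPM (n = 6; adjusted p = 0.00336, edgeR). Zfp91, a ubiquitin ligase of the alternative NF-kB pathway, had the highest mean read count and rose from 178, 171 and 169 CPM to between 206 and 283 CPM (0.46 ± 0.13, adjusted p = 0.0152, edgeR). Its call was lost when any 1 naive library was left out, with upper-quartile scaling and with library totals, where the log2 fold change was 0.14 (adjusted p = 0.376, edgeR). Zfp451, a SUMO ligase, was not called. Zfp106, second by reads, was at 172 ± 2.27 CPM (n = 3) and 209 ± 19.9 CPM (n = 6) (adjusted p = 0.0739, edgeR). It was called by DESeq2 and under the tables' grouping, and 26.1% of its exonic bases lie opposite another gene. On the scale of CPM per kilobase of gene length, Zfp91 and Zfp703 were also the highest members in naive lungs, at 31.3 and 31.0, where the median member had 5.75.

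Promoters are shown for the KRAB gene that fell furthest and for the pair of genes with the largest rises, as the 250 bases before the RefSeq start in GRCm38.p6. The starts lie 7 bases from the deposited gene start for Zfp46, 68 for Zfp948 and 20 for Zfp60. Capitals mark matches to any of 8 motifs searched on both strands: AP-1 (TGANTCA), CRE (TGACGTCA), NF-kB (by name), GC box (GGGCGG), the ETS motif (CCGGAAG), the box named for its letters (CCAAT), NRF1 (GCGCANGCG) and YY1 (AANATGGCG).
Zfp46, chr4:136284426-136284675, plus strand: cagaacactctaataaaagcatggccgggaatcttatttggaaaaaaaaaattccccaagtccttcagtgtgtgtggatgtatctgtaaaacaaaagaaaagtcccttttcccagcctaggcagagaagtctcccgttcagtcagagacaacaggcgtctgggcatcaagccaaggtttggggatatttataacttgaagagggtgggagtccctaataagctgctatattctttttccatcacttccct
Zfp948, chr17:21566728-21566977, plus strand: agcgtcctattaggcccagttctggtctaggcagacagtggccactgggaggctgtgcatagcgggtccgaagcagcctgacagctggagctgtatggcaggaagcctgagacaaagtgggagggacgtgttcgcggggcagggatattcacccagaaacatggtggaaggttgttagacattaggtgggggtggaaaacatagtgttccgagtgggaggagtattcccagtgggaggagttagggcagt
Zfp60, chr7:27731159-27731408, plus strand: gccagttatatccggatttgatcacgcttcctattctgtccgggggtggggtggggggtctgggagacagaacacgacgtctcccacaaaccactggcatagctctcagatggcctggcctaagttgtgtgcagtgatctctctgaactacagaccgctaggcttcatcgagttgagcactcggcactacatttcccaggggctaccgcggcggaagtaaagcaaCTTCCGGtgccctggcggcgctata
Zfp60 holds 1 ETS match and the other windows hold none of the 8 motifs. RefSeq windows were found for 127 members, some with several starts, 162 windows in all. The GC box was in 54.3% of them and in 32.7% of all 32851 windows, the ETS motif in 13% and 6.91%. AP-1 was in 4.32% of member windows and 6.75% of all, CRE in 3.7% and 1.55%, NF-kB in 7.41% and 7.25%, CCAAT in 37.7% and 33.8%, and YY1 in 2.47% and 1.12%. NRF1 was in 9.88% of member windows and 5.16% of all. It matched 8 of 39 windows of members that rose, 3 of 48 of members that fell and 5 of 75 of members not called. In the same order, the ETS motif matched 8, 7 and 6 of these windows and the GC box 22, 23 and 43. The other motifs are not split here, and no difference was tested. The median GC content was 58% in member windows and 52.4% in all.

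Each graft group was also compared with the naive lungs, which both comparisons share. In cold-ischemia grafts 54 members were lower and 24 higher, where 13.1% and 17.5% of all genes were. In shock grafts 44 were lower and 33 higher, where 17.9% and 22% were. Zfp46 rose by 3.42 in cold-ischemia and by 2.72 in shock grafts, and Zfp948 by 1.88 and 2.37. Zfp467 changed by -1.52 and -1.67. Both disputed libraries were also left out, an alternative chosen after the data were seen. Then 53 members were lower and 20 higher in cold-ischemia grafts, and 44 and 34 in shock grafts. Shares of all genes for these single groups are not given here. In all grafts, 59 members were lower and 30 higher, where 20.1% and 21.6% of all genes tested were.

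No member passed the test of a difference between the graft groups. Between shock and cold-ischemia grafts 0 members were called by edgeR and 0 by DESeq2, where 0% of all genes were called by edgeR. The smallest adjusted p of a member was 0.671 (edgeR). At an unadjusted p under 0.05 there were 18 members, 11.6%, against 7.28% of all genes. The differences ran from -0.70 for Zfp46 to 0.93 for Zfp366, which is named for its place at the end of this range. Zfp366 was at 9.84, 8.94 and 5.91 CPM in cold-ischemia grafts and at 13.3, 24.6 and 9.08 CPM in shock grafts, beside 21.8, 21.2 and 27.2 CPM in naive lungs, so the graft groups overlapped. The 95% interval of the difference was -1.21 to -0.20 for Zfp46 and 0.19 to 1.66 for Zfp366. The interval lay within 1.5-fold for 69 members and reached past it for 86, so a difference of that size remained possible for the latter.

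**Figure D5:**
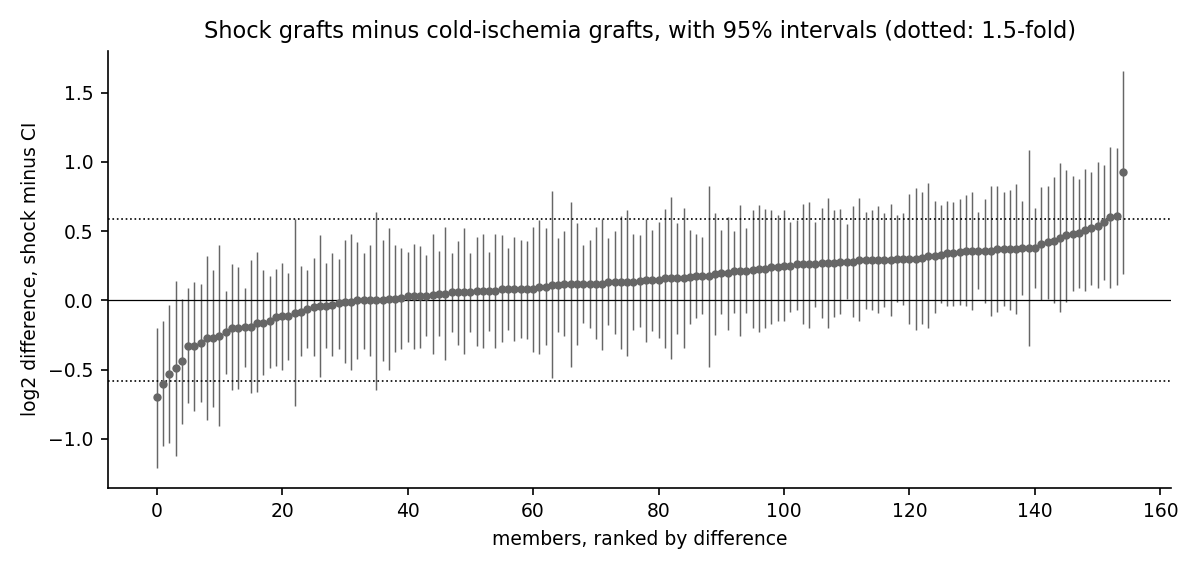
Log2 difference of shock minus cold-ischemia grafts for the 155 members, ranked, with 95% intervals; dotted lines mark 1.5-fold. Of the members, 121 lie above 0 (78.1%, against 51.5% of all genes tested), the ends are -0.70 and 0.93, and 0 passed the test.

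Under the grouping of the tables, 0 members were called by edgeR, where 0.783% of all genes were. In the authors' deposited table of shock against cold-ischemia grafts, 2 members were higher and 0 lower, or 1.29% and 0%, where 1.13% and 1.97% of all genes in the authors' deposited table were. They were Zfp697 (log2 fold change 0.62, adjusted p = 0.0307 in the authors' deposited table) and Zfp142 (0.60, adjusted p = 0.0158 in the authors' deposited table), the second chosen after its values were seen. By the titles' grouping, Zfp697 differed by 0.47 (95% interval -0.01 to 0.94) and Zfp142 by 0.32 (-0.20 to 0.85). The authors' deposited tables against naive lungs had 66 members lower and 28 higher in cold-ischemia grafts, and 44 lower and 39 higher in shock grafts. Of all genes in the authors' deposited tables, 16.7% and 19.5% were lower and higher in the first comparison, and 16.6% and 20.7% in the second, against 42.6% and 18.1%, and 28.4% and 25.2%, of the members.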

How the data were processed

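RNA sequencing of 9 whole left lungs gave 3 deposited tables, each of 6 libraries, joined here by gene identifier; the 9 repeated columns held 0 differing counts. Per the file headers the authors deposited whole-number read counts per gene, a normalized signal, FPKM, gene length, and log2 fold changes with p-values. The submitters' processing notes name mm10 as the build and, as tools, edgeR, DESeq2, STAR, STAR-Fusion and HTSeq; versions, the role of each, the annotation and the strand setting are not given in the sources used here. The signal and FPKM columns deposited by the authors were read for their unit only. The members and gene lists were chosen with earlier results of these data known.

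Counts were tested with edgeR 4.0.16 in R 4.3.3 (TMM scaling, filterByExpr, quasi-likelihood test, two-sided, 15834 genes, 6 residual degrees of freedom), with all 9 libraries in 1 fit and grafts taken as the mean of the 2 graft groups. A call needed an adjusted p (Benjamini-Hochberg) under 0.05. CPM are given as levels; ± is SD for levels and SE for log2 fold changes. DESeq2 1.42.0, other scalings, no filter, the tables' grouping, the replicate block, other minimums and leaving out each library were alternatives.

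Fingers (C-x(2 to 4)-C-x(12)-H-x(3 to 5)-H) and the KRAB A box (9 anchor residues, up to 1 mismatch) were matched in translated GENCODE M21 coding sequences, in place of the RefSeq proteins first planned. Members sharing at least 10% of 50-base words with other genes numbered 7, and 15 had at least 10% of exonic bases opposite another gene. Of the 135 members with neither and no such overlap on their own strand, 50 were lower and 27 higher. Named genes were the 10 largest falls and 10 largest rises among called members whose naive and graft libraries did not overlap, the 4 with the highest mean reads, any called between graft groups (0), and the members on 4 role lists. Depth was 18913487 to 34986276 counts per library; intervals are from the fit.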

Additional observations from a re-analysis of the deposited data

Results flagged for a closer look

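In 5 named members, 1 of the 6 grafts stood apart from the others by more than Dixon's 95% critical value for the gap over the range; chance flags about 1 in 20 such groups. Zfp598 was at 108.4 CPM in shock replicate 2, where the nearest graft had 68.6 CPM. In the same library Zfp207 was at 176 CPM, with the nearest graft at 115 CPM. Zfp622 was at 85.1 CPM in cold-ischemia replicate 3 (nearest 67.4 CPM), Zfp644 at 89.3 CPM in shock replicate 1 (nearest 65.8 CPM), and Zfp462 at 49.0 CPM in shock replicate 3 (nearest 35.1 CPM).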

How the results depend on the processing

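The count of members lower in grafts, 55 as reported, was 84 with upper-quartile scaling and 90 with library totals, which also gave 19 higher, 89 lower in cold-ischemia grafts and 80 lower in shock grafts. Over all genes tested, 19.7% were lower in grafts as reported, 31.8% with upper-quartile scaling and 39.6% with library totals. Shares for the single graft groups with library totals are not given here. The count of lower members was 19 of 82 with a minimum of 500 reads, 131 of 263 with 50 reads and 89 of 196 with 200 reads in naive lungs. The median was 0.07, -0.52 and -0.39 under these 3 minimums, and -0.41 and -0.53 under the 2 scalings. These minimums change which genes are counted, and the shares of other genes under them are not given here. Of calls over all genes tested, 52.8% were higher under TMM, 34.8% under upper-quartile scaling and 26.9% with library totals; of the members' calls, 35.3%, 21.5% and 17.4%. Leaving out 1 library at a time gave 45 to 60 lower and 23 to 33 higher members, where 12.9% to 21.6% and 16.8% to 22.4% of all genes tested were. With the replicate block, 54 were lower and 28 higher, where 18.2% and 20.4% of all genes tested were. Same-numbered libraries of different groups correlated between -0.394 and 0.096 in their deviations. Libraries of different numbers were not set beside these, so whether the numbers pair the samples was not decided. Across the settings with a fit of their own, 43 members were lower and 19 higher in all 19. The share of all genes called in every setting is not given here. For the 46 named members, 767 of 828 alternative values kept the direction and the side of the threshold, 19 lost a call and 19 gained one. In the other 23, of 8 members called neither as reported nor under the alternative (Zfp106, Zfp143, Zfp207, Zfp410, Zfp445, Zfp451, Zfp687 and Zfp809), the sign changed, 6 of them with library totals and 4 with upper-quartile scaling; no called value changed sign. The median SE of the log2 fold change was 0.17 for members with 200 to 400 mean reads, 0.16 from 400 to 800 and 0.14 from 800.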

Other observations

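Zinc-finger genes outside the set were counted in the same fit. Of 156 tested Zfp genes under the minimum of 200 mean reads, 105 were lower in grafts and 4 higher, with a median log2 fold change of -1.04; of the 4500 protein-coding genes tested under that minimum, 22.9% were lower and 11% higher, against 67.3% and 2.56% of these Zfp genes. Zfp genes whose number is followed by letters had 11 lower and 1 higher of 20, where 20.1% and 22.5% of all protein-coding genes tested were. Among Zkscan and Zscan genes, 10 of 18 were lower and 3 higher (median -0.61). Zbtb genes had 9 lower and 10 higher of 40, and Klf genes 4 lower and 5 higher of 15. With library totals, 18 Zbtb genes were lower and 7 higher, where 39.6% and 14.6% of all genes tested were.

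Zfp36, the RNA-binding protein that promotes decay of cytokine mRNA and that the set leaves out, stood at 127 CPM in naive lungs and 1056 CPM in grafts, a rise of 3.06 ± 0.22 on the log2 scale (adjusted p = 3.46e-06, edgeR). Its relative Zfp36l1 rose by 0.76 ± 0.13 (adjusted p = 0.000953, edgeR), and Zfp36l2 was not called, at 180 and 146 CPM.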
